A study of Mus musculus with 12 samples.

Results

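Notch signalling was followed through 10 genes in mouse fetal thymocytes: the receptors Notch1 and Notch3, the DNA-binding partner Rbpj with its coactivator Maml1, and 6 genes used as readouts of the pathway (Hes1, Hes5, Hey1, Heyl, Dtx1 and Nrarp). The 10 were taken by name from a table of 24421 genes, with earlier results of these data known. Of the 10, 9 passed the filter for testing, a level of at least 1 RPKM in at least 2 libraries. Hey1 did not pass and is given by its values alone. RPKM are reads scaled to transcript length and to a size for each library.

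Notch receptors are cut by a membrane protease and then by gamma-secretase after they bind a ligand on a neighbouring cell, and the freed intracellular part enters the nucleus. There it binds RBPJ on DNA, and a protein of the Mastermind family (MAML1) joins the complex and brings in histone acetyltransferases. Without the intracellular part, RBPJ sits in complexes with corepressors. In the thymus, NOTCH1 commits progenitors to the T lineage and sustains them up to the beta-selection checkpoint. HES1, DTX1, NRARP and the receptor NOTCH3 are among the products of genes it is known to switch on in these cells.

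The 12 libraries were of RNA from sorted cells of C57BL/6 embryos, and all of them, controls included, lacked Rag1. Such thymocytes cannot rearrange their antigen receptor genes and stop before the checkpoint. All embryos also carried loxP-flanked Bcl6 alleles (Rag1KO Bcl6 fl/fl). Controls were LckCre-, and the libraries labelled KO were LckCre+, with Cre driven from the promoter of the T cell kinase gene Lck, so loss of Bcl6 and presence of Cre cannot be told apart. CD25-positive cells came from unstimulated thymi. CD8-positive, CD4-negative immature single-positive cells (ISP) and CD8-positive, CD4-positive double-positive cells (DP) came from thymi given 1 µg/ml of anti-CD3 for 2 days, a stimulus that stands in for the pre-T cell receptor. The treatment protocol and the label of each ISP and DP library, controls included, give this treatment, while the design text of the series mentions it for thymi of the conditional knockout alone. That difference between the sources bears on every genotype comparison in ISP and DP. Each of the 6 groups had 2 libraries. Most labels give E16.5 as the age and the treatment protocol gives E17.5. Population and anti-CD3 cannot be told apart in any comparison with CD25-positive cells. Nothing in the labels ties each library to an embryo or culture of its own, and p-values therefore measure only the spread between these samples, part of which may be technical.

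Groups follow the titles. The sequencing library names of 6 of the 8 anti-CD3 libraries point to another group, and the developmental stage label names another population in 5 of the 8. Cd4, 1 of the genes that define the sort, followed the titles: it ran from 1.03 to 1.78 RPKM in CD25-positive libraries, from 13.9 to 20.5 RPKM in ISP and from 191 to 344 RPKM in DP. Bcl6 itself went against the genotype label at the level of the whole gene. It stood at 11.9 and 11.6 RPKM in ISP controls against 18.9 and 25.1 RPKM in the ISP libraries labelled KO, and at 72.5 and 70.0 RPKM in DP controls against 87.7 and 111 RPKM in the DP libraries labelled KO. CD25-positive cells had 1.49 to 2.01 RPKM in all 4 libraries. A level over the whole gene does not show whether a deleted exon is missing from the transcript, and which exons are flanked by loxP is not given in the sources used here. Directions between genotypes below are therefore those of the labels. Reads recovered from the RPKM values summed to between 9665382 and 14240501 per library.

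RBPJ binds the core TGGGAA, and the sequence before the start of 7 of the 10 genes was in the RefSeq promoter table used (GRCm38.p6). Hes1, Hey1 and Heyl were not in it. The 4 shown here pair the 2 genes that hold the core with 2 readout genes that do not. Each is given 5′ to 3′ on the strand of its gene and covers the 250 bases that end just before the start. Capitals mark TGGGAA or its reverse complement TTCCCA. Hes5 is shown at chr4:154960673-154960922 (plus strand), Rbpj at chr5:53590096-53590345 (plus strand), Nrarp at chr2:25180508-25180757 (plus strand) and Dtx1 at chr5:120711670-120711919 (minus strand).
Hes5: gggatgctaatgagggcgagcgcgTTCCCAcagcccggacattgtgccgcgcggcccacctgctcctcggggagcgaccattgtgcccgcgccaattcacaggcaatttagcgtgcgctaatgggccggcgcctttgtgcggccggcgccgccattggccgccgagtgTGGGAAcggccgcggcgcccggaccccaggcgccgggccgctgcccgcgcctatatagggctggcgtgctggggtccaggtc
Rbpj: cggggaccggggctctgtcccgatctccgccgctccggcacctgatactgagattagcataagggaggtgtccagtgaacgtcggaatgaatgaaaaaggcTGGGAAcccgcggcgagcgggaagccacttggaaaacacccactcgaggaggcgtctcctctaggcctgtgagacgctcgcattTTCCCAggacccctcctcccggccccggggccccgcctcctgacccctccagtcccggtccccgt
Nrarp: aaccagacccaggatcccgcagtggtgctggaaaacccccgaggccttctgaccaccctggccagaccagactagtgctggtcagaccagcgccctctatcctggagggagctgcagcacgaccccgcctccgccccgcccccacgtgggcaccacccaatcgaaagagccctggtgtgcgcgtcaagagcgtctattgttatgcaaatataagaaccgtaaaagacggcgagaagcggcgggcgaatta
Dtx1: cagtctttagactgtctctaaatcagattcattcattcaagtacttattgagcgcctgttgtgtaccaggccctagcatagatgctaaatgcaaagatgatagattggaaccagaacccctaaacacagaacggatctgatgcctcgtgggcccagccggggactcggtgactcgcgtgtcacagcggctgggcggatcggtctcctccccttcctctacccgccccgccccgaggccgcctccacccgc

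Hes5 held 2 cores, which start 226 and 82 bases before the transcription start and lie on opposite strands. Both are of the longer form GTGGGAA, which contains the core. Rbpj held 2 cores in this window, starting 149 and 65 bases before the start, and neither was of the longer form. A second Rbpj start in the promoter table, with its window at chr5:53590236-53590535, had 1 core, 205 bases before it. That core is the TTCCCA already marked above. The windows used for Rbpj, Notch1 and Dtx1 lie inside the gene spans given below for these genes. A search of both strands of the windows of 300 bases (250 before and 50 after the start) found no core for Notch1, Notch3, Dtx1, Nrarp or Maml1. Of all 32851 promoter windows of that length in the table, 25.6% held TGGGAA and 6.38% held GTGGGAA. The search describes these letters in these windows and does not locate binding.

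In CD25-positive cells the readout genes covered a wide range of levels. Per kilobase, Hes1 (173 ± 28.0 RPKM, mean ± SD of the 4 CD25-positive libraries), Dtx1 (129 ± 8.32 RPKM) and Notch1 (107 ± 12.2 RPKM) were the most abundant of the 10. Notch3 followed at 47.2 ± 4.61 RPKM and Nrarp at 24.3 ± 2.05 RPKM. Rbpj stood at 7.33 ± 0.921 RPKM. The other 4 were low: Heyl 2.86 ± 0.525 RPKM, Maml1 2.14 ± 0.259 RPKM, Hes5 2.08 ± 0.305 RPKM and Hey1 0.344 ± 0.191 RPKM. In DP cells the order was another: Dtx1 (60.7 ± 7.07 RPKM) and Notch1 (45.1 ± 2.73 RPKM) led, and Hes1 (7.00 ± 2.26 RPKM) stood near Rbpj (6.63 ± 0.542 RPKM) and Nrarp (6.03 ± 0.747 RPKM).

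**Figure D1:**
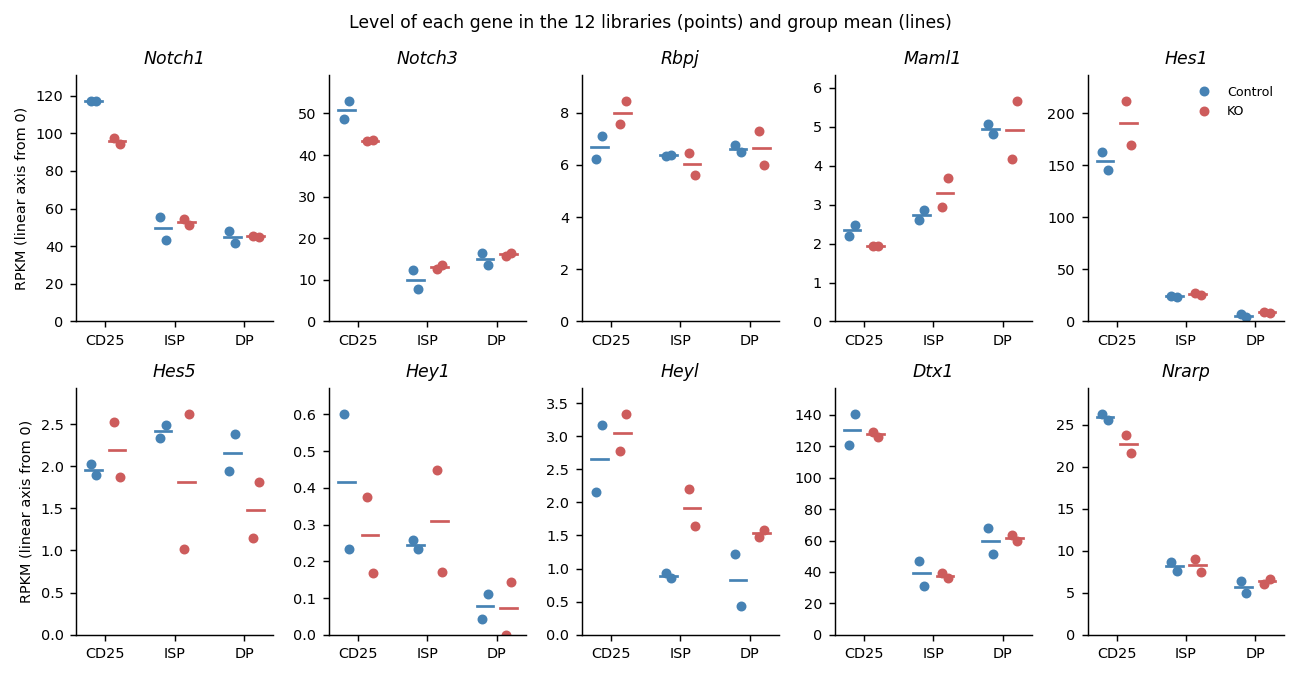
Level of each of the 10 genes in RPKM (linear axis from 0, a scale per gene) in CD25-positive, ISP and DP libraries; points are libraries (blue, control; red, labelled KO) and short lines are means of 2. Hes1, Notch1, Notch3, Dtx1 and Nrarp are highest in all 4 CD25-positive libraries, Maml1 is highest in all 4 DP libraries, and Hey1 stays at or below 0.6002 RPKM.

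The question across populations was how the pathway's genes changed as cells passed from the CD25-positive to the ISP and DP stages. Tests were limma fits of log2(RPKM + 1) over all 12 libraries with Benjamini-Hochberg adjustment over 11303 genes, and a gene was called at an adjusted p under 0.05. From CD25-positive cells to ISP, 7 of the 9 tested genes fell and 1 rose, where 63.9% of all genes tested were called (30.9% lower and 33.1% higher; 4597 lower and 2786 higher genes, against 3489 and 3739, with libraries scaled to an equal sum). The median difference of the 9 was -1.05 on the log2 scale, against 0.01 over all genes. In 6 of the 9 the 4 ISP libraries did not overlap the 4 CD25-positive ones, as in 56.3% of all genes. In RNA from pooled cells, fewer cells of a type and less RNA per cell cannot be told apart.

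Notch1 encodes the receptor that drives T lineage commitment (chr2:26457903-26516663, GRCm38). Its level was 117.0 and 117.1 RPKM in CD25-positive controls and 97.4 and 94.5 RPKM in the CD25-positive libraries labelled KO. ISP controls had 55.6 and 43.3 RPKM and ISP libraries labelled KO 54.3 and 51.0 RPKM. DP controls had 48.3 and 41.7 RPKM and DP libraries labelled KO 45.6 and 44.8 RPKM. All CD25-positive libraries were above all ISP and DP libraries, while ISP and DP overlapped. The fall from CD25-positive cells to ISP was 1.05 on the log2 scale (difference -1.05, SE 0.07, adjusted p = 1.04e-07, limma), a ratio of means of 2.09. Between ISP and DP the difference was -0.17 (SE 0.07, adjusted p = 0.0482, limma). Scaling the libraries to an equal sum moved the median difference of all genes between ISP and DP from 0.01 to 0.16. Notch1 then differed by 0.0026 with adjusted p = 0.977 (limma). Of the 8 fits without a single ISP or DP library, the call held in 2, those without ISP control library 2 (adjusted p = 0.00207) and without DP control library 1 (0.0221), and in the other 6 the adjusted p ran from 0.0588 to 0.226.

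Notch3, a receptor that is itself a NOTCH1 target in thymocytes (chr17:32120820-32166852), moved in opposite directions over the 2 steps. CD25-positive controls had 48.7 and 53.0 RPKM and CD25-positive libraries labelled KO 43.4 and 43.6 RPKM. The level was 12.4 and 7.73 RPKM in ISP controls and 12.6 and 13.5 RPKM in ISP libraries labelled KO. DP controls stood at 16.54 and 13.56 RPKM and DP libraries labelled KO at 15.73 and 16.46 RPKM. The 3 populations did not overlap: CD25-positive libraries were highest, ISP lowest and DP between them, with the highest ISP library (13.5 RPKM) close to the lowest DP library (13.6 RPKM). Notch3 fell by 1.96 (SE 0.11, adjusted p = 1.91e-08, limma) from CD25-positive cells to ISP, a ratio of 4.08, and rose by 0.42 (SE 0.11, adjusted p = 0.00422, limma) from ISP to DP, a rise of 0.27 without ISP control library 2 that was still called. The 2 receptors thus kept different shares of their starting level: in DP, Notch1 was at 0.423 and Notch3 at 0.330 of the CD25-positive mean.

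Rbpj, the DNA-binding factor on which Notch signals converge (chr5:53466152-53657362), was the steadiest of the tested genes above 5 RPKM, with all 12 libraries between 5.61 and 8.44 RPKM. CD25-positive controls had 6.24 and 7.09 RPKM and CD25-positive libraries labelled KO 7.55 and 8.44 RPKM. ISP libraries had 6.35 and 6.37 RPKM (control) and 6.46 and 5.61 RPKM (labelled KO). DP libraries had 6.75 and 6.48 RPKM (control) and 7.29 and 5.99 RPKM (labelled KO). The populations overlapped. The difference of ISP from CD25-positive cells was -0.21 (SE 0.08, adjusted p = 0.0430, limma), a call that held in 3 of 8 fits without a single library (those without CD25 control library 1, CD25 KO library 1 or ISP KO library 1, adjusted p from 0.0338 to 0.0448, against 0.0822 to 0.145 in the other 5) and had an adjusted p of 0.0710 with no filter on low values and 0.0518 with the replicate number as a block. DP was not called against either population, and only the scaling to an equal sum called it higher than ISP (0.24, adjusted p = 0.0256).

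Maml1, the Mastermind coactivator (chr11:50255634-50292311), was the 1 tested gene that rose over both steps. CD25-positive libraries had 2.21 and 2.48 RPKM (control) and 1.93 and 1.94 RPKM (labelled KO). ISP libraries had 2.62 and 2.86 RPKM (control) and 2.94 and 3.68 RPKM (labelled KO). DP libraries had 5.06 and 4.82 RPKM (control) and 4.16 and 5.66 RPKM (labelled KO). No library of 1 population overlapped those of another, and the order was CD25-positive, ISP, DP. The rise was 0.35 (SE 0.10, adjusted p = 0.00873, limma) from CD25-positive cells to ISP and 0.56 (SE 0.10, adjusted p = 0.000329, limma) from ISP to DP. In linear terms the DP mean was 2.30 times the CD25-positive mean.

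Hes1, a repressor of the hairy and enhancer-of-split family and a direct Notch target (chr16:30064384-30067796), showed the largest fall of the 9 at each step. CD25-positive libraries had 163 and 146 RPKM (control) and 212 and 170 RPKM (labelled KO). ISP libraries had 24.9 and 23.5 RPKM (control) and 27.1 and 25.6 RPKM (labelled KO). DP libraries had 6.81 and 3.89 RPKM (control) and 8.98 and 8.33 RPKM (labelled KO). The 3 populations did not overlap. Hes1 fell by 2.71 (SE 0.12, adjusted p = 2.47e-09, limma) and then by 1.76 (SE 0.12, adjusted p = 6.37e-08, limma), and the CD25-positive mean was 24.6 times the DP mean. The DP values rest on 69 to 151 recovered reads per library, against 2465 to 3388 in CD25-positive libraries.

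Hes5, another target of the same family (chr4:154960923-154962371), stayed between 1.02 and 2.62 RPKM in all 12 libraries and was not called in either step. CD25-positive libraries had 2.02 and 1.89 RPKM (control) and 2.52 and 1.87 RPKM (labelled KO). ISP libraries had 2.34 and 2.49 RPKM (control) and 1.02 and 2.62 RPKM (labelled KO). DP libraries had 1.94 and 2.38 RPKM (control) and 1.15 and 1.82 RPKM (labelled KO). The populations overlapped, and the lowest and the highest library of all were both ISP libraries labelled KO. Each library gave only 17 to 44 recovered reads, which limits what could be detected. Without ISP KO library 1, the DP level was called lower than ISP (-0.34, adjusted p = 0.0432, limma). Hes5 and Hes1, both known Notch targets, therefore differed in pattern here. Over the 12 libraries their log2 values had a Pearson r of 0.15, given as a description.

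Heyl and Hey1 belong to the related HEY family of repressors, best known from blood vessels. Heyl (chr4:123233556-123249875) had 2.15 and 3.17 RPKM in CD25-positive controls and 2.77 and 3.33 RPKM in CD25-positive libraries labelled KO. ISP libraries had 0.939 and 0.851 RPKM (control) and 2.20 and 1.64 RPKM (labelled KO). DP libraries had 1.22 and 0.434 RPKM (control) and 1.48 and 1.58 RPKM (labelled KO). Heyl fell from CD25-positive cells to ISP by 0.71 (SE 0.15, adjusted p = 0.00121, limma), although ISP KO library 1 was above the lowest CD25-positive library, and no call was made between ISP and DP. Hey1 (chr3:8663359-8667256) ran from 0.169 to 0.6002 RPKM in CD25-positive libraries, from 0.172 to 0.449 RPKM in ISP and from 0 to 0.143 RPKM in DP. These values come from 78 recovered reads over the 12 libraries: 39 in the 4 CD25-positive libraries (95% Poisson interval 27.7 to 53.3), 32 in ISP (21.9 to 45.2) and 7 in DP (2.81 to 14.4), intervals that cover counting error only. The library at 0, DP KO library 1, allows up to 0.117 RPKM at 3 reads.

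Dtx1 encodes a ubiquitin ligase of the Deltex family and Nrarp a small ankyrin protein that dampens the Notch complex, and both are used as measures of Notch activity in thymocytes. Dtx1 (chr5:120680202-120711927) had 121 and 140 RPKM in CD25-positive controls and 129 and 126 RPKM in CD25-positive libraries labelled KO. ISP libraries had 47.2 and 31.2 RPKM (control) and 39.3 and 36.0 RPKM (labelled KO). DP libraries had 67.9 and 51.3 RPKM (control) and 63.7 and 59.8 RPKM (labelled KO). The populations did not overlap, and their order was that of Notch3: CD25-positive highest, ISP lowest. Dtx1 fell by 1.74 (SE 0.12, adjusted p = 8.29e-08, limma) from CD25-positive cells to ISP and rose by 0.65 (SE 0.12, adjusted p = 0.000262, limma) from ISP to DP.

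Nrarp (chr2:25180758-25183339) had 26.3 and 25.6 RPKM in CD25-positive controls and 23.8 and 21.7 RPKM in CD25-positive libraries labelled KO. ISP libraries had 8.65 and 7.63 RPKM (control) and 9.06 and 7.50 RPKM (labelled KO). DP libraries had 6.42 and 4.99 RPKM (control) and 6.03 and 6.70 RPKM (labelled KO). Nrarp followed the order of Hes1, with every CD25-positive library above every ISP library and every ISP library above every DP library. It fell by 1.46 (SE 0.09, adjusted p = 2.88e-08, limma) and then by 0.39 (SE 0.09, adjusted p = 0.00138, limma).

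**Figure D2:**
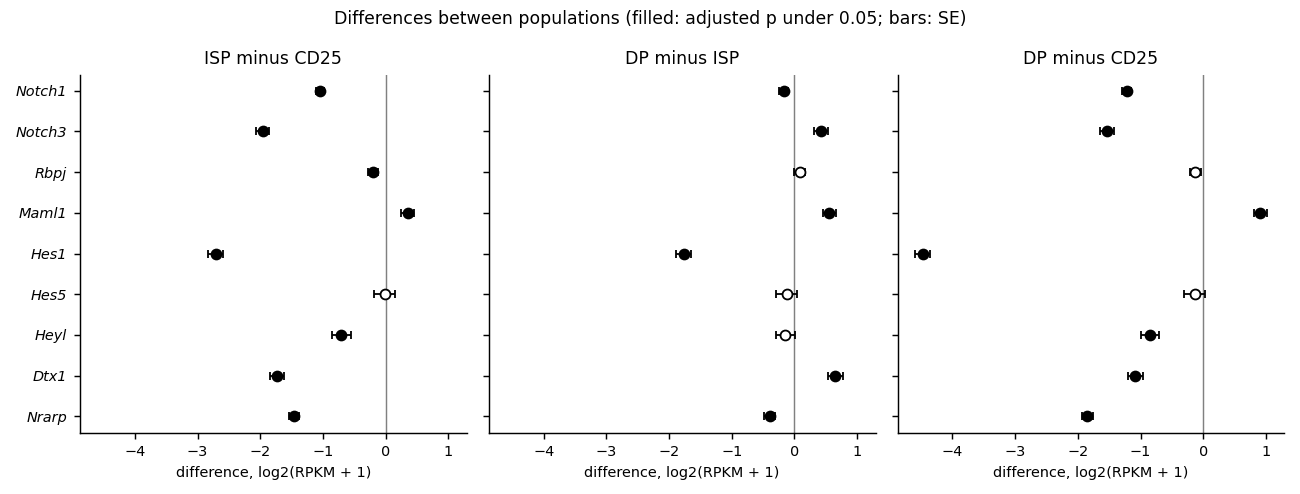
Difference in log2(RPKM + 1) for the 9 tested genes in ISP minus CD25, DP minus ISP and DP minus CD25; points are limma estimates over 12 libraries, bars are SE, and filled points have an adjusted p under 0.05. Hes1 lies farthest to the left in each panel, Notch3 and Dtx1 lie left in the first panel and right in the second, and Maml1 lies right in all 3.

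From ISP to DP, 3 of the 9 genes rose (Notch3, Dtx1 and Maml1) and 3 fell (Hes1, Nrarp and Notch1), where 70.6% of all genes tested were called (35.6% higher and 35.0% lower; 5353 higher and 3023 lower genes, against 4024 and 3959, with libraries scaled to an equal sum). The median difference of the 9 was -0.12, against 0.01 over all genes. The populations did not overlap for 5 of the 9, as for 58.5% of all genes. Over the whole interval from CD25-positive cells to DP, 6 genes fell and Maml1 rose (0.91, SE 0.10, adjusted p = 4.09e-06, limma), with 75.7% of all genes called (37.3% higher and 38.4% lower). The falls were 4.48 for Hes1, 1.85 for Nrarp, 1.54 for Notch3, 1.22 for Notch1, 1.08 for Dtx1 and 0.85 for Heyl. Libraries of these 7 genes did not overlap, as in 64.1% of all genes, and Hes5 and Rbpj were not called. The 3 comparisons between populations share libraries. The share of the 9 called in either direction was 66.7% from ISP to DP and 77.8% from CD25-positive cells to DP. Both are near the shares of all genes and are not particular to these genes. From CD25-positive cells to ISP the share was 88.9%, against 63.9% of all genes. The 9 were chosen with earlier results known, and these shares were not compared by a test.

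The steps were then set side by side within each genotype. From CD25-positive cells to ISP, the ratio of CD25-positive to ISP means was 6.38 in controls and 7.24 in libraries labelled KO for Hes1, 3.33 and 3.39 for Dtx1, and 3.19 and 2.75 for Nrarp. For the receptors it was 2.37 in controls and 1.82 in libraries labelled KO for Notch1, and 5.06 and 3.33 for Notch3. The test of that difference, the interaction of genotype with the step, called 0 of the 9 genes and 0.0% of all genes by limma. An unadjusted p under 0.05 was found for 1105 of all 11303 genes and for 2 of the 9. These 2 were Notch3 (0.60, SE 0.22, adjusted p = 0.421) and Notch1 (0.38, SE 0.14, adjusted p = 0.425). Both depended on the ISP controls: without ISP control library 1 they were 0.91 for Notch3 and 0.56 for Notch1, and without ISP control library 2 they were 0.29 and 0.21, with none called. The fit to recovered reads (limma-voom) called 14 genes and none of the 9.

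In CD25-positive cells, where the 2 genotypes were compared without anti-CD3, none of the 9 genes was called by limma or on recovered reads by limma-voom, and 0.0188% of 10636 genes were by limma. By limma, 3 of the 9 had an unadjusted p under 0.05, as did 972 of the 10636 genes. Notch1 was lower in the libraries labelled KO (-0.28, SE 0.06, adjusted p = 0.237), Notch3 was lower (-0.22, SE 0.07, adjusted p = 0.442) and Hes1 higher (0.30, SE 0.11, adjusted p = 0.466). The Hes1 difference was 0.14 without CD25 KO library 1 and 0.46 without CD25 KO library 2, with adjusted p of 0.9985 and 0.205. The libraries of the 2 genotypes did not overlap for 6 of the 9 (Notch1, Notch3, Nrarp and Maml1 lower, Hes1 and Rbpj higher), where 40.2% of all genes did not overlap. The ratio of means, labelled KO over control, lay between 0.820 for Notch1 and 1.24 for Hes1 among the 9. With 2 libraries a side, the differences of both receptors were larger than the spread between libraries of a group and did not pass the adjustment over all genes.

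In ISP cells none of the 9 genes was called by limma or limma-voom, where 0.354% of all genes were by limma. The unadjusted p was under 0.05 for Heyl (0.62, SE 0.21, adjusted p = 0.217) and Notch3 (0.38, SE 0.16, adjusted p = 0.324), both higher in the libraries labelled KO. It was under 0.05 for 1494 of all 11303 genes. The genotypes did not overlap for Heyl, Notch3, Hes1 and Maml1 (45.2% of all genes). For Notch3 the nearest values were 12.4 RPKM in ISP control library 1 and 12.6 RPKM in ISP KO library 1, and the 2 controls lay farther apart (12.4 and 7.73 RPKM) than the group means did (10.1 and 13.0 RPKM). Without ISP control library 1 the Notch3 difference was 0.69, and without ISP control library 2 it was 0.07.

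In DP cells Hes1 was the 1 gene of the 9 that was called, higher in the libraries labelled KO, where 21.9% of all genes were called (14.1% higher). The split over all genes was 1597 higher and 879 lower, and 955 and 1773 with libraries scaled to an equal sum. Its 4 DP values, 6.81 and 3.89 RPKM in controls and 8.98 and 8.33 RPKM in libraries labelled KO, did not overlap, and 62.3% of all genes did not overlap in this comparison. The difference was 0.64 (SE 0.17, adjusted p = 0.0196, limma), a ratio of means of 1.62. Hes1 in the DP libraries labelled KO was still below all ISP libraries: its mean was 0.328 of the ISP mean of that genotype, against 0.221 in controls. The call depended on DP control library 2, the lowest of the 12: without it the difference was 0.31 with adjusted p = 0.138, and without DP control library 1 it was 0.98 and called. It was also lost without either library labelled KO (adjusted p = 0.0752 and 0.0856), on recovered reads (0.0836), with no filter (0.0708) and with the 4 DP libraries alone (0.0601).

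Heyl differed in the same direction in DP (0.51, SE 0.21, adjusted p = 0.106, limma) and its libraries did not overlap. The size depended on the DP controls: without DP control library 1 the difference was 0.82 and called (adjusted p = 0.0357), and without DP control library 2 it was 0.19 (adjusted p = 0.605). Hes5 was the third gene without overlap, with both libraries labelled KO below both controls, and it was not called. Notch1, Notch3, Rbpj, Maml1, Dtx1 and Nrarp overlapped between genotypes in DP. The median difference of the 9 was 0.06, against 0.00089 over all genes. Whether the genotype difference itself changed from ISP to DP was tested by the interaction, which called 0 of the 9 genes and 4.19% of all genes by limma. Hes1 was the 1 gene of the 9 at an unadjusted p under 0.05 (0.52, SE 0.24, adjusted p = 0.231). So were 2441 of all 11303 genes. Of 8 fits without a single library, 1 called the Hes1 interaction, that without DP control library 1 (0.86, adjusted p = 0.0399), and without DP control library 2 it was 0.19 (adjusted p = 0.572). Recovered reads called none of the 9 in this interaction.

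**Figure D3:**
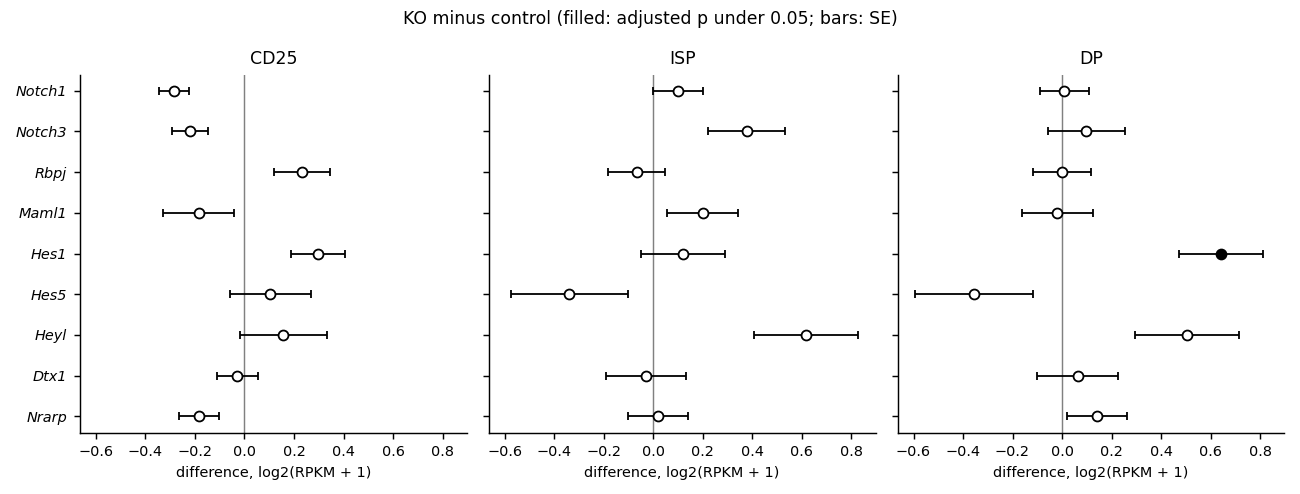
Difference in log2(RPKM + 1), libraries labelled KO minus control, for the 9 tested genes in CD25-positive, ISP and DP cells; points are limma estimates, bars are SE, and the filled point has an adjusted p under 0.05. Hes1 in DP (0.64) is the 1 filled point, Notch1 and Notch3 lie left of 0 in CD25-positive cells, and Heyl lies right of 0 in ISP and DP.

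Some of these genes differed widely between libraries of a group given anti-CD3. In DP, control library 2 was below control library 1 for 8 of the 9 tested genes, where 48.2% of all genes were, with the widest ratio, 2.80, for Heyl. In ISP, control library 2 was below control library 1 for 6 of the 9, with the widest ratio, 1.60, for Notch3. Dtx1 ran at 47.2 against 31.2 RPKM in these ISP libraries and at 67.9 against 51.3 RPKM in the DP ones. In ISP libraries labelled KO, Hes5 stood at 1.02 and 2.62 RPKM. The replicate numbers do not mark shared embryos in the labels.

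Markers of other cells were read beside these results as sums of RPKM over lists, without a test. Of 6 pericyte and smooth muscle markers, cells that use Notch3 and Heyl, 3 reached 1 RPKM in some library, and the sum fell from 16.8 to 21.5 RPKM in CD25-positive libraries to 8.80 to 11.6 RPKM in ISP and 5.70 to 7.05 RPKM in DP. Pdgfrb carried most of it, and Rgs5 was at 0 in all 12 libraries. The sum of 6 endothelial markers was 20.4 to 25.1 RPKM in CD25-positive libraries, 22.1 to 26.5 RPKM in ISP, 42.1 to 44.6 RPKM in DP controls and 32.8 to 35.3 RPKM in DP libraries labelled KO. Of these 6 only Pecam1 reached 1 RPKM, Emcn was at 0 throughout and Cdh5 stayed at or below 0.0230 RPKM. The sum of 6 thymic epithelial markers moved with the Notch genes that fell, from 108 to 120.2 RPKM in CD25-positive libraries to 14.5 to 18.1 RPKM in ISP and 16.0 to 21.9 RPKM in DP. Epcam alone ran from 13.8 to 119.8 RPKM, while Foxn1, Psmb11 and Krt5 stayed at or below 0.118 RPKM. The sum of 5 mast cell markers was 23.4 to 28.9 RPKM in CD25-positive libraries and 0 to 1.75 RPKM in DP. In ISP it was 10.0 to 12.6 RPKM in controls and 24.6 to 29.9 RPKM in libraries labelled KO, the direction of Heyl and Notch3 there. Cpa3 alone made up the sum in CD25-positive libraries and in ISP controls, where the other 4 mast cell markers were at 0. It reached 28.9 RPKM. In the ISP libraries labelled KO, 3 of the 5 reached 1 RPKM. The myeloid sum (5 genes, with Lyz2 between 3.65 and 65.2 RPKM) was higher in libraries labelled KO in every population: 18.4 to 24.7 RPKM in controls against 33.4 to 37.0 RPKM in CD25-positive cells, 9.50 to 10.5 against 31.6 to 50.9 RPKM in ISP and 12.8 to 18.9 against 51.2 to 76.2 RPKM in DP. In DP the sum of 6 NK and innate lymphoid markers was 6.64 to 7.99 RPKM in controls. It was 16.33 to 16.47 RPKM in libraries labelled KO, the direction of Hes1, Heyl and the myeloid sum there. Only 2 of the 6 reached 1 RPKM in DP. Tyrobp was at 5.06 RPKM or more in every library and so made up most of the sum in DP controls. The NK and innate lymphoid sum was highest in ISP (99.0 to 150.5 RPKM), where 4 of the 6 genes reached 1 RPKM. The sum of the gamma delta T list (3 genes measured) was highest in CD25-positive libraries, at 15.2 to 19.6 RPKM. It was 3.52 to 6.33 RPKM in ISP and 1.09 to 2.02 RPKM in DP. Without Rag1 the antigen receptor genes cannot be rearranged, so this sum does not count gamma delta T cells here. No gene of the mesenchymal, erythroid and B lineage lists reached 1 RPKM in any library. The part of other cells in the levels of Hes1, Heyl, Notch3 and the other genes was not tested.

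Other genes of the pathway were taken from a list of 77, of which 60 passed the filter. From CD25-positive cells to ISP, 17 rose, 21 fell and 22 were not called, with a median of -0.04 against 0.01 over all genes. The share called was 63.3%, next to 63.9% of all genes (33.1% higher and 30.9% lower). From ISP to DP, 29 rose, 15 fell and 16 were not called, with a median of 0.10 against 0.01. The share called was 73.3%, next to 70.6% of all genes (35.6% higher and 35.0% lower). Both shares are near those of all genes, and the counts by role that follow are to be read against the same background. None of the 6 ligands passed the filter. Of the other receptors Notch2 was tested, at 2.25, 1.98 and 1.79 RPKM in CD25-positive, ISP and DP cells, and was not called.

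Enzymes that put sugars on the receptor moved apart. Lfng, the Fringe enzyme that sharpens the response of thymocytes to Delta-like ligands, fell at both steps, from 14.3 ± 0.504 RPKM in CD25-positive cells to 7.89 ± 1.58 RPKM in ISP and 0.739 ± 0.261 RPKM in DP (differences -0.80, SE 0.12, and -2.35, SE 0.12). Rfng rose at both steps (0.33 and 0.31). Mfng fell by 0.92 from ISP to DP, Pofut1 fell by 0.50 from CD25-positive cells to ISP, and Poglut1 rose by 0.15 and then fell by 0.30. Of 8 tested cleavage genes, Psenen rose at the first step and the gamma-secretase subunit Ncstn and the protease Adam10 fell. At the second step Ncstn (0.49), Adam10 (0.45), Furin (0.97) and Adam17 (0.28) rose and Psen2 fell by 0.67.

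Among 11 tested ubiquitin ligases and endocytic regulators, 6 fell and 2 rose (Dtx2 and Neurl1b) from CD25-positive cells to ISP, and 8 rose and Nedd4 fell from ISP to DP. The Deltex relatives of Dtx1 took different courses. Dtx2 rose at both steps, from 5.99 ± 0.472 to 12.7 ± 1.11 and 20.9 ± 1.97 RPKM, whereas Dtx4 fell from 3.99 ± 0.654 to 0.442 ± 0.103 RPKM and was not called at the second step. Dtx3l fell by 1.42 and rose by 0.32, and Dtx3 fell by 0.19 and rose by 0.80, the direction of Dtx1 at both steps. Of 7 coactivators, Kat2a, Kat2b and Maml3 fell at the first step. Kat2a, an acetyltransferase, fell again, from 30.9 ± 4.02 to 11.4 ± 0.998 RPKM, while Crebbp, Kat2b, Ep300 and Maml2 rose and Snw1 fell by 0.21. The Mastermind genes thus differed: Maml3 fell by 0.81 at the step at which Maml1 rose.

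Of 15 tested corepressors, 6 rose and 3 fell (Tle4, L3mbtl3 and Tle3) at the first step, and 6 rose and Hdac2 fell at the second. Aes, a short Groucho family protein, rose from 162 ± 9.51 to 329 ± 15.8 and 448 ± 32.8 RPKM, and Tle2, a long Groucho protein, from 0.144 ± 0.0957 to 0.896 ± 0.208 and 6.61 ± 2.68 RPKM. Hes6, which lacks the usual response of the family to Notch, rose from 61.3 ± 4.07 to 85.1 ± 4.74 and 104 ± 2.31 RPKM while Hes1 fell.

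Of 12 genes known as Notch-dependent in early T cells, 5 rose (Tcf7, Trib2, Gata3, Skp2 and Bcl11b) and 5 fell (Il2ra, Ptcra, Il7r, Myc and Igf1r) at the first step, and 5 rose and 7 fell at the second. Il2ra encodes CD25, the marker of the sort, so its fall of 3.99 was set by the choice of cells. The means of Ptcra, which encodes the pre-T cell receptor alpha chain, fell and then rose like those of Notch3 and Dtx1, from 780 ± 50.9 to 231 ± 27.3 and 283 ± 33.5 RPKM. Unlike those genes, its ISP and DP libraries overlapped. The ratio of DP to ISP means was 1.08 in controls and 1.38 in libraries labelled KO. Il7r fell from 28.9 ± 1.38 to 11.0 ± 3.64 and 0.795 ± 0.269 RPKM and Myc from 188 ± 11.4 to 143 ± 11.2 and 29.2 ± 11.1 RPKM. Genes named above to complete a count of 5 or fewer were chosen after their values were seen. These include Adam17, Neurl1b, Nedd4, Maml2, Snw1, Tle3, Hdac2, Gata3, Skp2 and Igf1r.

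Between genotypes, limma called 0 of 57 tested pathway genes in CD25-positive cells and 0 of 60 in ISP. At an unadjusted p under 0.05 by limma were 4 and 10 of them, against 972 of all 10636 genes in CD25-positive cells and 1494 of all 11303 in ISP. Limma-voom called 0 and 4 of the list, against 8 and 174 of all genes. In DP, 2 were higher in the libraries labelled KO (Myc and Skp2) and 6 were lower (Il2ra, Tcf7, Trib2, Tle2, Ncor1 and Dtx3). That is 13.3% of the list, where 21.9% of all genes were called (14.1% higher and 7.78% lower). The split became 1 higher and 14 lower with libraries scaled to an equal sum. Myc, a growth regulator and Notch target, had 20.9 and 18.8 RPKM in DP controls and 35.5 and 41.6 RPKM in DP libraries labelled KO (0.92, SE 0.08, adjusted p = 0.000103), the same direction as Hes1. Il2ra had 32.95 and 24.31 RPKM against 21.1 and 14.5 RPKM (-0.66, SE 0.16, adjusted p = 0.0127), the direction opposite to Hes1. Genes of this group therefore moved both ways in DP. For Myc, Skp2 and Il2ra the interaction with the step from ISP to DP was also called (adjusted p = 0.0101, 0.0416 and 0.0122, limma). These 3 were 5% of the 60 tested genes of the list, near the 4.19% of all genes called in that interaction. With libraries scaled to an equal sum it called 1 higher and 1 lower, and with no filter 1 higher and 0 lower.

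**Figure D4:**
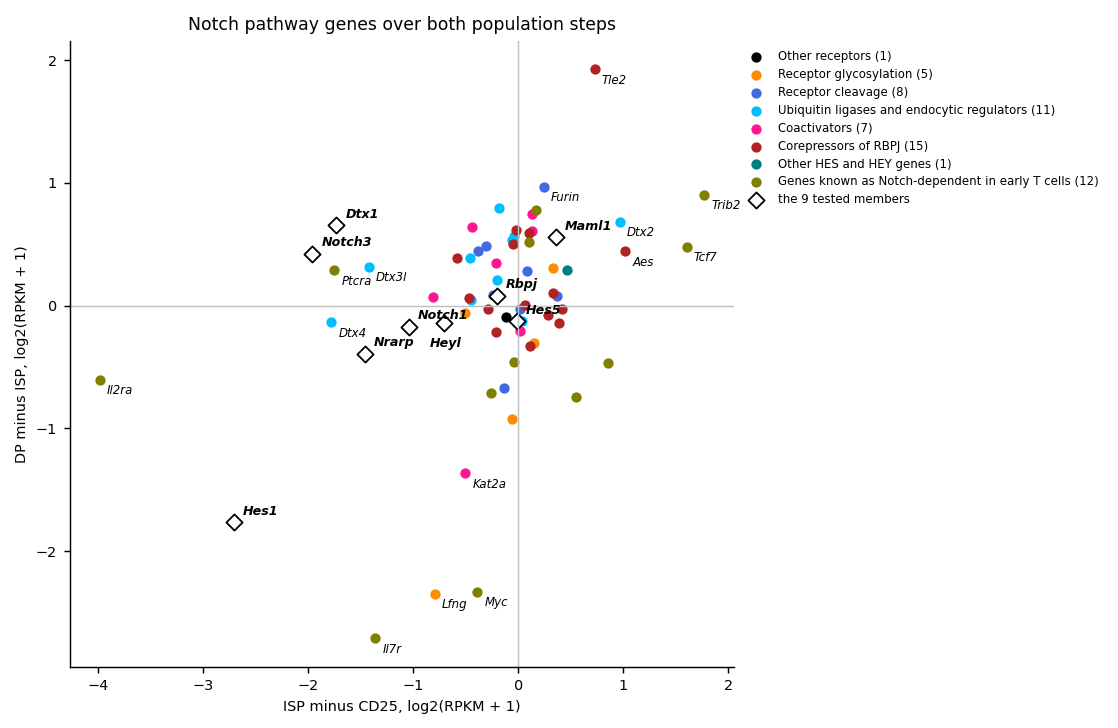
Difference in log2(RPKM + 1) from CD25-positive cells to ISP (x axis) against that from ISP to DP (y axis) for 60 tested pathway genes, coloured by role, and the 9 tested members (open diamonds). Both axes share the ISP libraries; Hes1, Lfng, Kat2a, Myc and Il7r lie low on the left, Dtx1, Notch3 and Ptcra lie left and above 0, and Maml1 lies right and above 0 with Trib2, Tcf7, Dtx2 and Aes.

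The genes whose level over the 12 libraries was most like that of each member were picked from 2720 genes by Pearson r of log2 values. The 12 libraries form 3 populations, so such an r mostly reflects the differences between populations, and it is given as a description. Notch1 was most like Slfn9 (r = 0.988), Carkd (0.987) and Nrarp (0.986), the 1 case in which a member was among the closest genes of another. Nrarp was closest to Arhgef10l (0.994), Hes1 to B2m (0.997) and Adam19 (0.995), Notch3 to Ephx3 (0.983) and Dtx1 to Slc5a9 (0.985) and Spib (0.980). Heyl was closest to Ifi27 (0.958), Rtp4 (0.957) and Isg15 (0.955), genes known for their response to interferon. Maml1 was closest to Igsf23 (0.972) and Kdm6b (0.971). Rbpj (Hk1os, 0.814) and Hes5 (Capn2, 0.6001) had no gene so close. Among the members, r was 0.970 between Notch3 and Dtx1 and 0.970 between Hes1 and Nrarp, against 0.696 between Hes1 and Dtx1.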

How the data were processed

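Groups were taken from the titles, source names and genotype labels, 2 libraries each. The authors deposited RPKM values per gene. BWA and GRCm38 are named per the submitters' processing notes; which counter, annotation, versions and filters were used is not given in the sources used here. The deposited RPKM values moved in steps that gave whole reads for 100% of 169595 values above 0, within 0.02 reads, with denominators of 9508841 to 14356391 reads. Median-of-ratios factors were already equal (largest deviation 2.24e-10 over 11989 genes). The denominators were not plain read totals: recovered reads were 96.5% to 102% of them.

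Values of log2(RPKM + 1), a scale that understates changes of low genes, were fitted with limma-trend (limma 3.58.1, R 4.3.3). Genes had to reach 1 RPKM in 2 or more libraries. The genotype comparison in CD25-positive cells used its 4 libraries (10636 genes), and the others used all 12 in 6 groups (11303 genes). A gene was called at a Benjamini-Hochberg adjusted p under 0.05. Alternatives were a pseudocount of 0.1, no filter, a filter at 5 RPKM, an equal sum per library, limma-voom on recovered reads (edgeR and DESeq2 were not used), a replicate block, groups by library name, other sets of libraries and leaving out each library. Members and lists were chosen with earlier results of these data known.

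All 10 members are named. Of the pathway list, up to 4 genes per role with the smallest p in a step between populations, and those called between genotypes, are named. Genes most like a member are the 3 with the highest r that average 5 RPKM in a group and span 1 on the log2 scale. Positions are from GENCODE M21 (GRCm38), and promoters from RefSeq (GRCm38.p6). Tables and plots used Python 3.11.15, pandas 2.3.3, numpy 2.4.6 and matplotlib 3.10.9.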

Additional observations from a re-analysis of the deposited data

Results flagged for a closer look

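Notch3 and Maml1 differed between genotypes in opposite directions in CD25-positive and ISP cells, with every library labelled KO on 1 side of both controls in each population. Notch3 was lower in CD25-positive libraries labelled KO (43.4 and 43.6 RPKM against 48.7 and 53.0) and higher in the ISP ones (12.6 and 13.5 RPKM against 12.4 and 7.73). The difference of the 2 genotype differences was 0.60 on the log2 scale (unadjusted p = 0.0189, adjusted p = 0.421, limma), and it ran from 0.29 to 0.91 with single libraries left out. Maml1 went the same way, lower in CD25-positive libraries labelled KO (1.93 and 1.94 RPKM against 2.21 and 2.48) and higher in the ISP ones (2.94 and 3.68 RPKM against 2.62 and 2.86). Its interaction was 0.39 (unadjusted p = 0.0818, adjusted p = 0.579, limma), and 0.26 to 0.51 with single libraries left out. Neither interaction passed the threshold, so a difference between the populations is not shown. The genotypes did not overlap for 40.2% of all genes in CD25-positive cells and 45.2% in ISP. How many genes did so in opposite directions was not counted, so the pattern is not shown to be particular to these genes. Titles and library names agree for the CD25-positive libraries and not for all ISP libraries.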

How the results depend on the processing

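With 2 libraries per group, 69 to 151 recovered reads for Hes1 in DP libraries and 17 to 44 for Hes5 over all libraries set the depth behind the lowest values. The calls from CD25-positive cells to DP were the least dependent: 7 genes in all fits without a single library. For the other steps these fits called 7 to 8 genes (ISP against CD25) and 5 to 6 (DP against ISP). For DP genotypes they called 0 to 2, for the interaction of DP with ISP 0 to 1, and for the other comparisons 0. The DP genotype count was 0 with no filter, 0 on recovered reads and 0 with the 4 DP libraries alone; the cause was not tested.

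Grouping by library name moves 6 libraries. It called 5 members between genotypes in ISP, 4 in DP, 0 between DP and ISP and 3 in the interaction of ISP with CD25. Of all 11303 genes, this grouping called 5502 between genotypes in ISP, 5622 in DP, 0 between DP and ISP and 3372 in that interaction. Where members were called, calls were thus common among all genes too, and the members were not tested against them. By these names every library titled ISP is a control and every library titled DP a KO. A genotype difference by name is therefore a difference between titled populations, and each named population mixes both. The sign turned for Hes1 (-1.61) and Heyl (-0.087) between DP genotypes by name and for Heyl between ISP genotypes by name (-0.20). Between DP and ISP by name it turned for Notch1 (0.17), Hes1 (0.23), Nrarp (0.15) and Maml1 (-0.16). These values do not bear on the genotype differences by title. Scaling to an equal sum turned Notch1 between DP and ISP (0.0026). It moved the median of all genes from 0.01 to 0.16 in that step.

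The replicate number as a block gave 7 called genes from CD25-positive cells to ISP, losing Rbpj (adjusted p = 0.0518, limma), and changed no other call. Same-numbered libraries were not paired: over 15 pairs of groups their deviations correlated at -0.07 to 0.12, over 0.1 in 1 pair.

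Over all genes, counts of calls moved by more than 1.5 times for genotype in CD25-positive cells (2; 8 on recovered reads, 9 with all 12 libraries, 1 with no filter or a pseudocount of 0.1), for genotype in ISP (40; 8 with no filter, 67 at 5 RPKM, 174 on recovered reads, 5502 by library name), for genotype in DP (2476; 5622 by library name), for DP against ISP (7983; 0 by library name), for the interaction of DP with ISP (474; 185 with no filter, 294 with equal sums, 0 by library name) and for that of ISP with CD25 (0 with 1105 at an unadjusted p under 0.05; 14 on recovered reads, 3372 by library name). Without single libraries these counts over all genes ran from 2 to 34 for genotype in CD25-positive cells, 6 to 56 in ISP and 824 to 2596 in DP, from 64 to 1017 for the interaction of DP with ISP and from 0 to 3 for that of ISP with CD25.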
